A study of Sus scrofa with 67 samples.

Results

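The genes described here are ADAM12 and 8 further genes of extracellular matrix remodelling in pig muscle, namely CERCAM, MMP2, MMP14, TIMP1, TIMP2, LOX, POSTN and FBN1. They are 9 of the 18158 genes in the read count table. They were chosen by name, and ADAM12 and CERCAM also because their counts were higher on a low protein diet than on a standard diet. The values of that first contrast are therefore given as a description without a test.

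ADAM12 is a membrane-anchored metalloprotease and disintegrin that is expressed in developing and regenerating muscle and in mesenchymal cells. Matrix remodelling balances proteases against their inhibitors. MMP14 at the cell surface activates the gelatinase MMP2 in a complex that includes TIMP2, and the TIMPs are inhibitors of matrix metalloproteinases. LOX cross-links collagen and elastin, FBN1 forms the microfibrils on which elastic fibres are built, and POSTN (periostin) is a matricellular protein that binds collagens. CERCAM (cerebral endothelial cell adhesion molecule) is related in sequence to the collagen galactosyltransferases.

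RNA of the longissimus dorsi, the long muscle of the back, was sequenced from 67 Swiss Large White pigs of 20 litters, 33 of them females and 34 castrated males. In weeks 1 to 4 after weaning the pigs were fed either a diet of standard protein content (STD, n = 6 libraries) or a low protein diet (LP, n = 6). The low protein diet held 81% of the total and 79% of the digestible crude protein of the standard diet, with digestible amino acids kept at requirement in both. The STD-STD group (n = 12) came from the standard start and continued on standard feed in weeks 5 to 8. The other second-period groups, 12 libraries each, all came from the low protein start: LP-STD received standard feed, and LP-STD10 and LP-STD20 received standard feed whose digestible lysine was raised by 10% and 20%, with the other essential amino acids above requirement. A further group is named BL (n = 7), and the labels do not say what the name stands for. Libraries are from separate pigs, and the sex, litter and day of sampling of each library are not given.

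Libraries held 26680567 to 36935497 counted reads, and no pair was close enough to count as 1 sample (highest Pearson r across genes 0.992). Levels are CPM (reads of a gene scaled to a common library total) with library sizes scaled by TMM factors. CPM is not corrected for transcript length, so levels are compared between groups and not between genes. The lowest count of ADAM12 in any library was 56. The muscle label was checked on 6 of 10 fibre markers that were in the table, and mean ACTA1, the skeletal muscle actin, was 124372 to 175135 CPM by group. Several libraries stood apart from their groups. BL replicate 4 was the lowest of its group for ADAM12 (1.58 CPM), CERCAM (6.49), POSTN (7.75) and FBN1 (27.7), and its summed cell division markers were 10.6 CPM against a BL median of 49.2. LP-STD10 replicate 2 was the lowest of its group for 6 of the 9 genes, LP-STD10 replicate 10 the highest for 6, and STD-STD replicate 10 the lowest for 6. In the first period STD replicate 2 was the lowest of its group for 7 genes.

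ADAM12 had its highest group mean in LP, at 10.3 ± 1.60 CPM (SD, n = 6), and its lowest in STD, at 6.36 ± 0.797 (n = 6). Between them lay LP-STD20 at 9.32 ± 1.23, STD-STD at 9.19 ± 2.33, LP-STD10 at 9.15 ± 1.88 and LP-STD at 8.09 ± 1.80 (n = 12 each), and BL at 6.85 ± 3.09 (n = 7). Every neighbouring pair in this order differed by less than the larger of their SDs. CERCAM was likewise highest in LP, at 26.3 ± 3.30 CPM, which was above the next group, LP-STD20 at 21.9 ± 2.79, by more than the larger SD. BL (21.8 ± 8.30), STD-STD (21.5 ± 4.37), LP-STD10 (20.6 ± 3.05), STD (19.4 ± 1.61) and LP-STD (18.9 ± 3.94) followed, each within 1 SD of the next. LP was also the group with the highest mean for MMP2, LOX, POSTN and FBN1. Among these only POSTN exceeded the next group, BL, by more than the larger SD. MMP2 averaged 184.6 CPM in LP and 183.7 in BL, and LOX 14.0 and 13.6. MMP14 was highest in BL, and TIMP1 and TIMP2 were highest in LP-STD20, each by less than the larger SD.

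**Figure D1:**
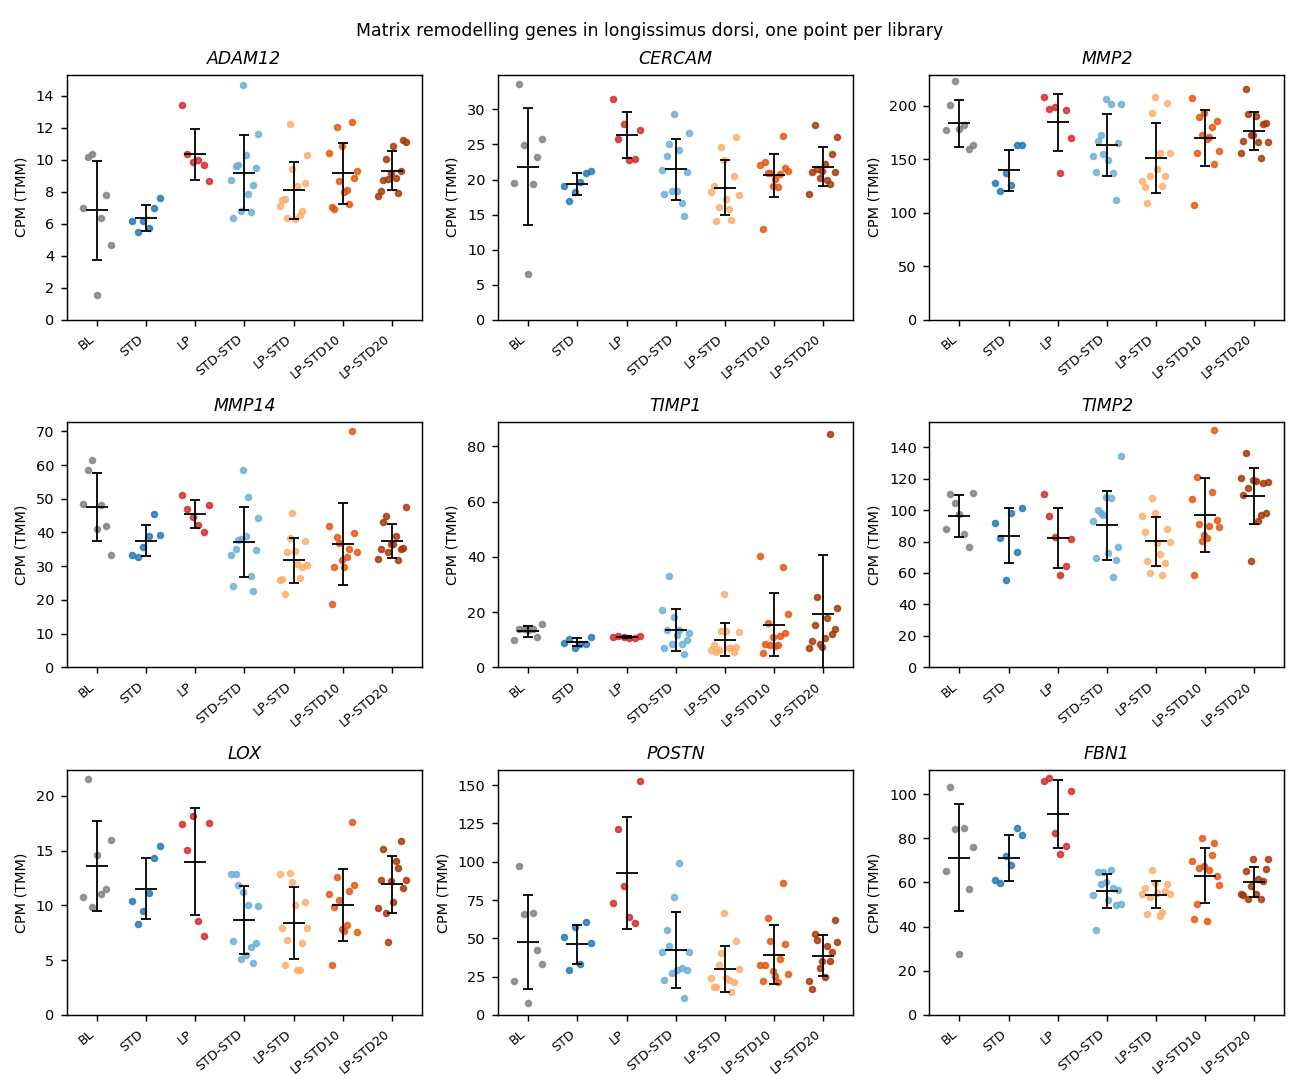
Levels of the 9 genes in CPM (linear axis from 0), 1 point per library, in the 7 groups; the black dash and bar are the mean and SD. For ADAM12 the 6 LP libraries (8.69 to 13.4 CPM) lie above all 6 STD libraries (5.50 to 7.61), TIMP1 in LP-STD20 has 1 library at 84.5 CPM, and the FBN1 points of STD-STD and LP-STD sit low. The lower SD bar of TIMP1 in LP-STD20 would pass below 0 and is cut at the axis.

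In the first period, 8 of the 9 genes had a higher mean on low protein. For ADAM12 the LP libraries ran from 8.69 to 13.4 CPM with a median of 9.93, and the STD libraries from 5.50 to 7.61 with a median of 6.17. No LP library reached down to the STD range. The difference was 0.70 ± 0.12 on the log2 scale (SE), and it ranged from 0.61 without LP replicate 1 to 0.74 without STD replicate 6 when single libraries were left out (difference of mean log2 CPM). For CERCAM the LP libraries ran from 22.8 to 31.5 CPM with a median of 26.4, and the STD libraries from 17.0 to 21.2 with a median of 19.3. These ranges did not overlap either, and the log2 difference was 0.45 ± 0.09. Over all 12584 genes tested, 37 (0.294%) had every LP library above every STD library, and edgeR called 0% of genes at an adjusted p under 0.05. Since this contrast chose ADAM12 and CERCAM, nothing is read from their place among those 37 genes.

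The other genes overlapped between the diets to different degrees. MMP2 had 5 of 6 LP libraries above all STD libraries, with 137.3 to 208.2 CPM against 120.5 to 163.2 and a log2 difference of 0.40 ± 0.11. Its activator MMP14 ran from 40.1 to 51.1 CPM in LP and from 32.8 to 45.5 in STD, a log2 difference of 0.28 ± 0.09. Of the inhibitors, TIMP1 lay between 10.6 and 11.4 CPM in all 6 LP libraries, a much narrower span than the 7.12 to 11.0 in STD, with a log2 difference of 0.28 ± 0.10. TIMP2 was the exception in direction, at -0.03 ± 0.17, with wide and fully overlapping ranges. POSTN had the largest difference of the 9, 1.01 ± 0.26 on the log2 scale, with 60.3 to 152.9 CPM in LP and 29.1 to 60.4 in STD, and 5 of 6 LP libraries lay above all of STD. FBN1 differed by 0.36 ± 0.12. LOX spread widely within LP, from 7.22 to 18.2 CPM, and its difference of 0.28 ± 0.24 was close to its error.

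The median log2 difference of the 9 genes was 0.36, beside 0.00 over all genes tested, of which 50.6% were positive. Other genes of the matrix, described by counts because they share the libraries of the choosing contrast, were mostly on the same side of 0. All 10 fibrillar and fibril-associated collagens were positive with a median of 0.41, as were 20 of 21 further collagen modification genes with a median of 0.24. The 10 markers of fibroadipogenic cells, the mesenchymal cells that make much of muscle matrix, were positive in 9 cases with a median of 0.18, and their summed level was 1143 to 1581 CPM in LP and 1068 to 1516 in STD. The 10 cell division markers were all positive, with a median of 0.32 and summed levels of 57.3 to 97.1 CPM in LP and 33.8 to 76.2 in STD. Muscle fibre markers were positive in 0 of 6 cases (median -0.17) and Schwann cell markers in 0 of 3 (-0.28). Satellite cell and myoblast markers were positive in 2 of 9 cases (-0.11). Lymphocyte markers were positive in 5 of 6 cases (0.31), macrophage markers in 7 of 9 (0.10) and endothelial markers in 7 of 10 (0.06). For smooth muscle and pericyte markers it was 4 of 7 (0.04), and for adipocyte markers 4 of 6 (0.08). The part of these cells, and of cell division, in the differences of the 9 genes was not tested. In bulk tissue, more cells of a type and more RNA per cell cannot be told apart. The LP libraries carry library numbers 8, 9 and 16 to 19, and the STD libraries 10 to 15. ADAM12 averaged 11.9 CPM in LP libraries 8 and 9 and 9.56 in 16 to 19, both above the STD mean of 6.36, while TIMP2 averaged 103.1 and 71.9 CPM on either side of the STD mean of 83.8.

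Whether a low protein start left a difference after the return to a standard diet was addressed in the second period. These libraries lie outside the contrast that chose ADAM12 and CERCAM, though the genes were chosen with earlier results of these data known. ADAM12 was not higher in pigs that had started on low protein. It ran from 6.30 to 12.2 CPM in LP-STD with a median of 7.53, and from 6.36 to 14.7 in STD-STD with a median of 9.11. The ranges covered each other almost entirely, and 3 of 12 LP-STD libraries exceeded the STD-STD median. The log2 difference was -0.19 with a 95% interval of -0.43 to 0.05 (edgeR, adjusted p = 0.58). CERCAM was at -0.20 with an interval of -0.40 to 0.01 (adjusted p = 0.53).

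All 9 genes had a negative estimate in LP-STD against STD-STD, with a median of -0.19 beside -0.01 over all genes, of which 47.7% were positive. The 9 genes varied together within groups, so their signs are not independent. Of the 9, 0 passed the test, as did 0% of the 13032 genes. None of the 9 reached an unadjusted p under 0.05 either, while 1319 genes did, and DESeq2 called 7 genes, none of the 9. POSTN had the most negative estimate, -0.50 ± 0.27 (adjusted p = 0.54), and TIMP1 was at -0.45 ± 0.37 (adjusted p = 0.70). FBN1 and LOX lay nearest to 0, at -0.05 ± 0.09 and -0.06 ± 0.20. The 10 fibrillar collagens were all negative with a median of -0.09. Several cell type marker lists were one-sided here as well, with no call in any. All 9 measured macrophage markers were negative (median -0.57), as were all 9 satellite cell and myoblast markers (-0.26), while all 6 muscle fibre markers (0.17), 6 adipocyte markers (0.15) and 3 Schwann cell markers (0.33) were positive. Of 10 fibroadipogenic markers 2 were positive (-0.12). The part of these cells in the estimates of the 9 genes was not tested. Library numbers of the second period come in 3 sets of 16, with 4 libraries of each group per set. The ADAM12 difference was -0.25, -0.10 and -0.16 in the 3 sets.

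With extra lysine the estimates of ADAM12 and CERCAM against STD-STD were nearer to 0, while those of LOX and FBN1 were farther from it. ADAM12 differed by -0.01 ± 0.12 in LP-STD10 and by 0.02 ± 0.12 in LP-STD20, and CERCAM by -0.06 ± 0.10 and 0.02 ± 0.10. The 95% intervals for ADAM12 were -0.25 to 0.22 and -0.22 to 0.26. None of the 9 genes passed the test in either comparison, against 0.399% and 0% of all genes. FBN1 was at 0.16 ± 0.09 in LP-STD10 and 0.10 ± 0.09 in LP-STD20, and LOX at 0.21 ± 0.20 and 0.46 ± 0.20 (adjusted p = 0.45 in LP-STD20). TIMP1 and TIMP2, negative in LP-STD, were positive in LP-STD20, at 0.52 ± 0.37 (adjusted p = 0.73) and 0.27 ± 0.12 (adjusted p = 0.51). LOX and TIMP2 in LP-STD20 had an unadjusted p under 0.05, as did 1165 of all genes. All 3 of these comparisons share the STD-STD libraries. The standard and low protein arms also moved differently for ADAM12 between periods: the mean was 6.36 CPM in STD and 9.19 in STD-STD, but 10.3 in LP and 8.09 in LP-STD. That difference reuses the contrast that chose the gene and was not tested.

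**Figure D2:**
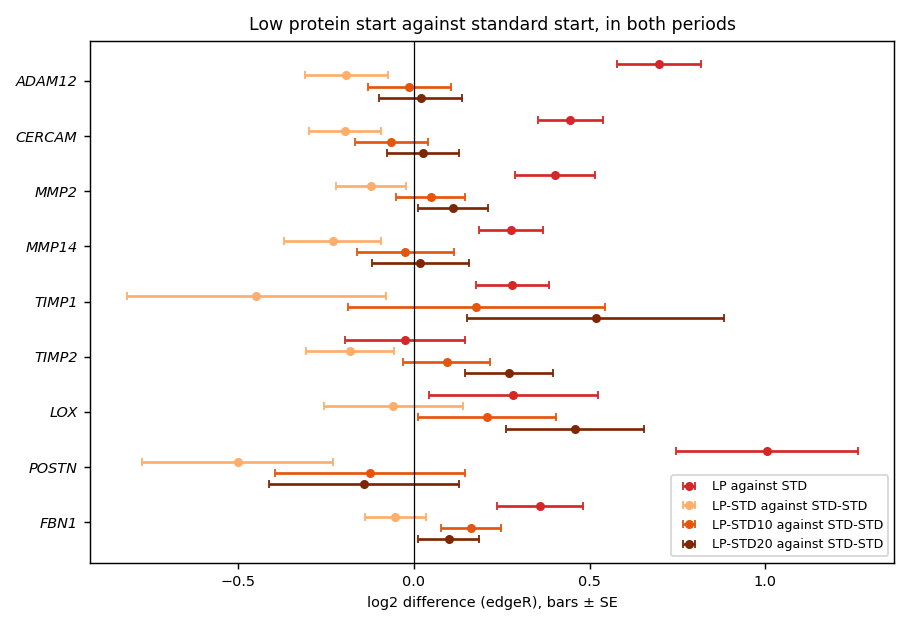
Log2 difference (edgeR) of a low protein start against a standard start for the 9 genes, in the first period (LP against STD) and in 3 second-period comparisons against STD-STD; bars are the SE. The first-period values are a description, since they chose ADAM12 and CERCAM; ADAM12 lies at -0.19, -0.01 and 0.02 in the second-period comparisons, and all 9 LP-STD points lie left of 0.

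The effect of lysine among pigs with the same low protein start was read from LP-STD10 and LP-STD20 against LP-STD. None of the 9 genes passed the test in edgeR. All 9 estimates were positive in both comparisons, which share LP-STD, with medians of 0.22 and 0.25 beside 0.01 over all genes in each. Over all genes 53.2% were positive for LP-STD10 and 52.5% for LP-STD20. The 9 genes varied together within groups, so their signs are not independent. The share of all genes called was 0.407% for LP-STD10 and 0.046% (6 genes) for LP-STD20. In LP-STD20 an unadjusted p under 0.05 was reached by 5 of the 9, and by 2078 of the 13032 genes. In LP-STD10 it was reached by 1872 of all genes and by 2 of the 9, TIMP2 at 0.28 ± 0.12 (adjusted p = 0.30) and FBN1 at 0.22 ± 0.09 (adjusted p = 0.24).

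TIMP2, which both inhibits MMP2 and takes part in its activation, stood furthest from its error. It ran from 67.6 to 136.4 CPM in LP-STD20 with a median of 115.5, and from 58.8 to 107.6 in LP-STD with a median of 79.6. The groups overlapped, but 8 of 12 LP-STD20 libraries lay above all 12 LP-STD libraries. The log2 difference was 0.45 ± 0.12, with p = 0.000686 and an adjusted p of 0.106 in edgeR. DESeq2 gave an adjusted p of 0.0440 and limma voom with quality weights 0.0240, so the call depends on the tool. The difference was positive within each set of library numbers, at 0.65, 0.14 and 0.56.

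LOX ran from 6.64 to 15.9 CPM in LP-STD20 with a median of 12.3, and from 4.12 to 13.0 in LP-STD with a median of 7.97. All but 1 of the LP-STD20 libraries were above the LP-STD median, and the log2 difference was 0.52 ± 0.20 (edgeR, adjusted p = 0.19), with an adjusted p of 0.0484 in limma voom with quality weights. TIMP1 had the largest estimate, 0.97 ± 0.37 (adjusted p = 0.20), and the most uneven data. It ran from 6.88 to 84.5 CPM in LP-STD20 with a median of 13.0, and from 5.52 to 26.5 in LP-STD with a median of 7.26. Its difference was 0.94 and 1.57 in sets 1 and 3 but -0.37 in set 2, and without LP-STD20 replicate 9 it went from 0.72 to 0.48 in limma voom. MMP2 was at 0.23 ± 0.10 (adjusted p = 0.24) and CERCAM at 0.22 ± 0.10 (adjusted p = 0.29). ADAM12, at 0.21 ± 0.12 (adjusted p = 0.38), had all 12 LP-STD20 libraries above the LP-STD median of 7.53, though none above the highest LP-STD library.

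Differences between the 2 lysine levels were within their errors in most of these genes. In LP-STD20 against LP-STD10, 7 of the 9 estimates were positive, beside 49.9% over all genes. None of the 9 passed the test, and 0% of all genes did. TIMP1 at 0.34 ± 0.36 and LOX at 0.25 ± 0.20 were the largest. No cell type marker was called in LP-STD20 against LP-STD, but several lists were one-sided. All 9 measured macrophage markers (median 0.81), all 7 lymphocyte markers (0.19) and 8 of 9 satellite cell and myoblast markers (0.32) were positive. Positive estimates were found for 0 of 6 muscle fibre markers (-0.11), 0 of 3 Schwann cell markers (-0.23), 1 of 6 adipocyte markers (-0.46) and 2 of 10 endothelial markers (-0.10). The summed level of the macrophage markers was 68.3 to 335.5 CPM in LP-STD20 and 66.3 to 248.6 in LP-STD, and MARCO was under 1 CPM in every group mean. The part of these cells in the TIMP1, TIMP2 and LOX values was not tested. Among the other matrix metalloproteinases MMP9, a gelatinase of leukocytes, was called higher in LP-STD10 than in LP-STD (adjusted p = 0.0498), but 10 of 12 LP-STD10 libraries held under 1 CPM and the highest 15.1.

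**Figure D3:**
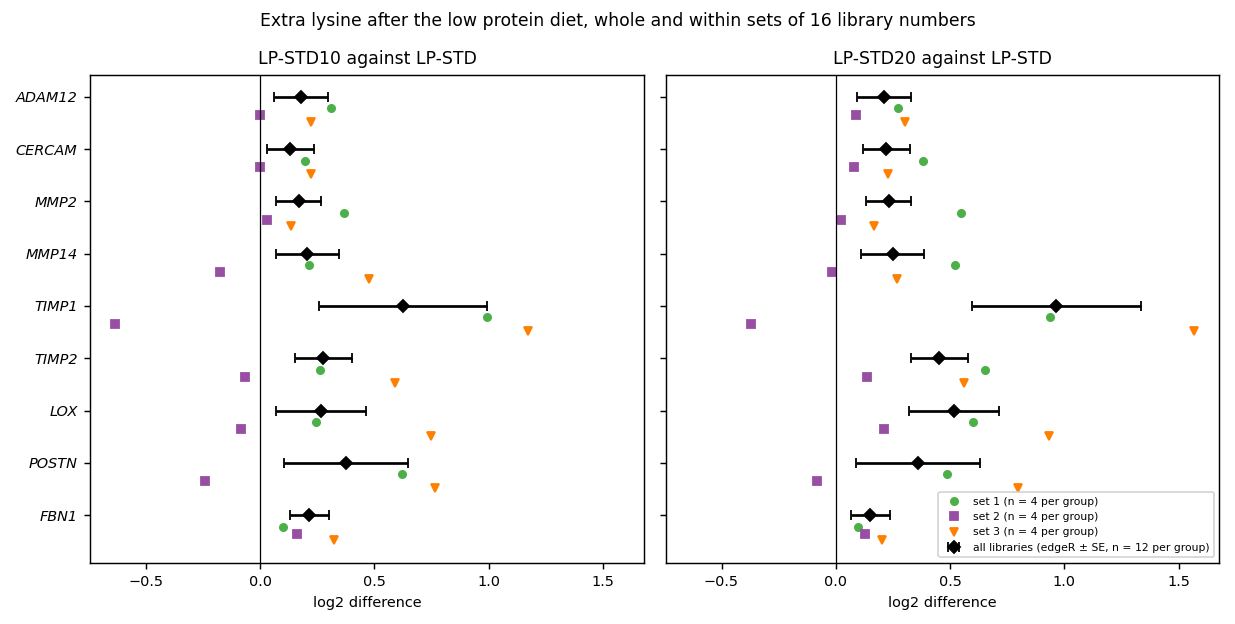
Log2 difference against LP-STD for LP-STD10 (left) and LP-STD20 (right). Black diamonds are edgeR estimates over all libraries (12 per group) with SE; coloured points are differences of mean log2 CPM within the 3 sets of 16 library numbers (4 per group). All black diamonds lie right of 0, while the set 2 points of TIMP1 lie left of it, at -0.63 and -0.37.

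Change between periods was tested on the mean of STD-STD and LP-STD against the mean of STD and LP. Both starting diets are weighted equally in this contrast, so a change in 1 arm alone also enters it. The means of each arm are given beside the calls of the 9 genes. Of the 9 genes 4 fell and none rose. Among all 13517 genes 31.2% were called, 16.3% lower and 14.9% higher.

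FBN1 fell by 0.55 ± 0.09 on the log2 scale (edgeR, adjusted p = 6.01e-06). It ran from 38.7 to 65.8 CPM in the 24 second-period libraries with a median of 55.8, and from 59.6 to 107.1 in the 12 first-period libraries with a median of 79.2. In the second period 18 of 24 libraries lay below all 12 of the first, and none reached the first-period median. Both arms were lower, from 71.1 to 56.2 CPM on the standard start and from 91.1 to 54.5 on the low protein start.

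POSTN fell by 0.87 ± 0.24 (adjusted p = 0.00312), LOX by 0.58 ± 0.16 (adjusted p = 0.00431) and MMP14 by 0.27 ± 0.11 (adjusted p = 0.0481). POSTN ran from 11.08 to 98.9 CPM in the second period with a median of 29.8, and from 29.1 to 152.9 in the first with a median of 60.3. The groups overlapped, with 11 of 24 second-period libraries below all of the first. The fall rested mostly on the low protein arm: the POSTN mean was 46.2 CPM in STD and 42.4 in STD-STD, but 92.7 in LP and 30.2 in LP-STD. LOX ran from 4.12 to 13.0 CPM in the second period and from 7.22 to 18.2 in the first, and both arms were lower, from 11.5 to 8.65 and from 14.0 to 8.37. For MMP14 it rested almost wholly on that arm, with means of 37.6 and 37.1 CPM on the standard start but 45.5 and 31.8 on the low protein start. These differences between arms were not tested.

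The call of MMP14 was the least secure: it was lost with RLE factors, DESeq2, no count filter or the replicate number as a block, with adjusted p of 0.0637, 0.0604, 0.0599 and 0.0504. When second-period counts were summed over runs of 4 consecutive library numbers, which leaves 3 sums per group, FBN1 alone of the 4 stayed past the threshold. The log2 differences were then -0.55 for LOX (adjusted p = 0.0506), -0.84 for POSTN (adjusted p = 0.0878) and -0.25 for MMP14 (adjusted p = 0.141), close to those over single libraries. ADAM12 (0.09 ± 0.13, adjusted p = 0.65), CERCAM (-0.17 ± 0.11, adjusted p = 0.23), MMP2 (-0.03 ± 0.08, adjusted p = 0.79), TIMP1 (0.22 ± 0.28, adjusted p = 0.59) and TIMP2 (0.03 ± 0.11, adjusted p = 0.87) did not pass. Each of these averages joins a higher mean on the standard start with a lower mean on the low protein start. ADAM12 went from 6.36 to 9.19 CPM and from 10.3 to 8.09, CERCAM from 19.4 to 21.5 and from 26.3 to 18.9. MMP2 went from 140 to 164 CPM and from 185 to 151. These opposite movements were not tested.

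Genes that share the roles of the 9 were counted in the same comparison. Of 18 further microfibril and elastic fibre genes 11 fell and 2 rose, with a median of -0.52 beside -0.02 over all genes. They included LTBP1, which anchors latent TGF beta to microfibrils (-0.56 ± 0.06), FBLN5 (-0.63 ± 0.09), MFAP5 (-0.96 ± 0.13) and EMILIN2 (-0.66 ± 0.12). Of 10 fibrillar and fibril-associated collagens 9 fell and none rose, among them COL1A1 (-0.80 ± 0.15), COL1A2 (-0.64 ± 0.15), COL5A1 (-0.49 ± 0.10) and COL12A1 (-0.92 ± 0.20). COL1A1 averaged 1932 CPM in the second period and 3402 in the first, where its mean was 2778 CPM in STD and 4026 in LP. A fall in this contrast can rest on high values in LP alone. In LP against STD the log2 difference was 0.17 for LTBP1, 0.09 for FBLN5, 0.20 for MFAP5 and 0.08 for EMILIN2. It was 0.54 for COL1A1, 0.50 for COL1A2, 0.34 for COL5A1 and 0.70 for COL12A1. The part of the LP libraries in the falls of these genes, and of the further genes named below, was not tested.

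Matricellular genes were mixed: of 18 besides POSTN, 8 fell and 3 rose. TNXB, a tenascin, fell by 0.47 ± 0.09. CCN2 (1.84 ± 0.26) and CCN1 (2.01 ± 0.36), both rapidly induced by mechanical and growth signals, and SPP1 (osteopontin, 4.02 ± 0.91) rose. SPP1 was low in the first period, with means of 0.95 CPM in STD and 0.96 in LP, so its log2 difference starts from a low level. Of 21 collagen modification genes besides LOX and CERCAM 4 fell, including the LOX relative LOXL2 (-0.46 ± 0.11) and PCOLCE, which enhances procollagen processing (-0.42 ± 0.11). COLGALT2, a collagen galactosyltransferase (0.62 ± 0.13), and PLOD2, a lysyl hydroxylase (0.40 ± 0.11), rose. Of the named genes that fell, TNXB was at 0.18, LOXL2 at 0.46 and PCOLCE at 0.26 in LP against STD.

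For proteases the share called was near or below the 31.2% of all genes. Of 25 ADAM and ADAMTS genes besides ADAM12, 3 fell and 5 rose, with ADAMTS12 at -0.52 ± 0.11 and ADAM8, a leukocyte ADAM, at 1.04 ± 0.29. ADAM8 was low in the first period, with a mean of 1.01 CPM in STD and in LP. Of 10 further matrix metalloproteinases MMP11 fell by 0.79 ± 0.12 and MMP15 rose by 0.56 ± 0.17. Of 8 inhibitors besides TIMP1 and TIMP2, RECK (-0.44 ± 0.08) and TIMP3 (-0.27 ± 0.08) fell while SERPINF1 (0.33 ± 0.10) and A2M (1.09 ± 0.37) rose. A2M was also low in the first period, with means of 1.05 CPM in STD and 0.69 in LP. Among 16 TGF beta ligands, receptors and SMADs 2 fell and 2 rose, with TGFBR3 at -0.67 ± 0.16. Of 10 partners and substrates of ADAM12 3 fell and 3 rose. ACTN2, the sarcomeric actinin whose binding to ADAM12 is known from other mammals, fell by 0.69 ± 0.11, and ITGA9 (0.26 ± 0.08) and ITGA7 (0.23 ± 0.08), integrin subunits, rose. In LP against STD, ADAMTS12 was at 0.51, MMP11 at 0.60, RECK at 0.16, TIMP3 at 0.07, TGFBR3 at 0.06 and ACTN2 at 0.03.

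Markers of other cells moved in the same comparison. Of 10 cell division markers 8 fell, with a median of -0.77. Their summed levels were 33.8 to 76.2 CPM in STD and 57.3 to 97.1 in LP, and 32.3 to 47.0 in STD-STD and 30.9 to 53.0 in LP-STD. Of 10 fibroadipogenic markers DCN, PDGFRA and LUM fell and PI16 rose, and of 9 satellite cell and myoblast markers 4 rose. Falls were called for 4 of 10 endothelial, 2 of 7 smooth muscle and pericyte, 2 of 6 adipocyte and 1 of 8 lymphocyte markers. Muscle fibre markers rose in 2 of 6 cases and fell in 1, and no macrophage or Schwann cell marker was called. The share called among all genes was 31.2%. The part of these cells, and of cell division, in the fall of FBN1, POSTN, LOX and MMP14 was not tested. Time after weaning, age and the order of the library numbers differ together between the periods and cannot be told apart. In the low protein arm the feed also changed, from low protein to standard, and cannot be told apart from them.

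Against BL, the mean of STD and LP showed no call for any of the 9 genes, while 10.3% of all genes passed. ADAM12 was at 0.24 ± 0.17 (adjusted p = 0.40), with 1.58 to 10.4 CPM in BL and 5.50 to 13.4 in the first period. Its group means were 6.85 CPM in BL, 6.36 in STD and 10.3 in LP, so the positive estimate rested on LP. The LP libraries also entered the choice of ADAM12 and CERCAM, so for these genes the test is not independent of that choice. This comparison turned on single BL libraries: in limma voom the ADAM12 difference was 0.44 (adjusted p = 0.13), 0.09 without BL replicate 4 and past the threshold without BL replicate 2 (0.58, adjusted p = 0.0413) or BL replicate 3 (0.57, adjusted p = 0.0498). POSTN was at 0.45 ± 0.33 (adjusted p = 0.43), with group means of 47.9 CPM in BL, 46.2 in STD and 92.7 in LP. TIMP1, at -0.40 ± 0.37, was called when only the 3 groups compared were in the fit (adjusted p = 0.0258). That fit leaves out the second-period libraries, in which the SD of TIMP1 was 5.99 to 21.3 CPM by group against 0.315 to 2.00 CPM in the 3 groups compared. All 12 first-period libraries lay below the BL median of 13.8 CPM for TIMP1. Of 18 further microfibril genes 5 were lower than in BL and none higher, among them ELN, elastin (-0.87 ± 0.21), and EMILIN2 (-0.71 ± 0.16).

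**Figure D4:**
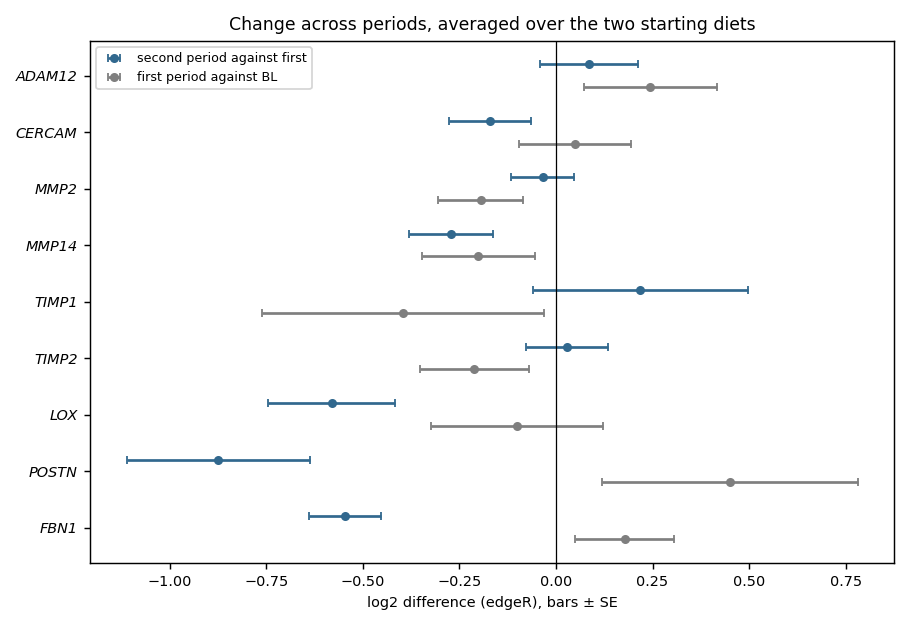
Log2 difference (edgeR, bars SE) of the 9 genes between the second and the first period (blue) and between the first period and BL (grey), each averaged over the starting diets. FBN1, POSTN, LOX and MMP14 lie left of 0 in blue, at -0.55, -0.87, -0.58 and -0.27, and ADAM12 lies at 0.09. For ADAM12 the blue point averages a higher mean on the standard start and a lower mean on the low protein start.

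Within groups, the 9 genes varied together from pig to pig. This was computed over the 48 second-period libraries, on deviations of log2 CPM from the mean of each group, so that differences between diets do not enter. All 36 pairs were positive, with Pearson r from 0.326 to 0.781 and a median of 0.566. All 36 had an adjusted p under 0.05 by Pearson and by Spearman (100000 permutations, Benjamini-Hochberg over the 36). The share of pairs among all genes that would pass the same test was not computed. The pairs are not independent of each other: all points share their libraries, depth and RNA composition.

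ADAM12 was most like MMP14 (r = 0.610, permutation p = 2e-05, adjusted 4e-05; Spearman rho = 0.568, permutation p = 7e-05, adjusted 0.00012). Without STD-STD replicate 6 and LP-STD replicate 5, the libraries farthest from the median of ADAM12, r was 0.549. ADAM12 and CERCAM had r = 0.585 (permutation p = 2e-05, adjusted 4e-05) and rho = 0.539 (permutation p = 0.00013, adjusted 0.00018), and 0.490 without those libraries. The lowest r of ADAM12 was that with LOX, 0.404 (permutation p = 0.00443, adjusted 0.00469), with rho = 0.388 (permutation p = 0.00672, adjusted 0.00733) and 0.330 without the farthest libraries. The median r of ADAM12 with the other 8 genes was 0.488, 0.450 without the farthest libraries and 0.494 when deviations were taken within runs of 4 libraries.

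CERCAM was more closely tied to the rest, with a median r of 0.739. Its r was 0.781 with MMP14, 0.774 with MMP2, 0.767 with LOX and 0.764 with TIMP2 (permutation p = 1e-05 for each, the smallest the permutations can give, adjusted 2.571e-05). Spearman's rho for these was 0.664, 0.635, 0.727 and 0.740 (permutation p = 1e-05, adjusted 3.273e-05). Without LP-STD10 replicate 2 and LP-STD replicate 11 the values of r were 0.747, 0.706, 0.741 and 0.746. The lowest r of all was that of TIMP1 with FBN1, 0.326 (permutation p = 0.0237, adjusted 0.0237; rho = 0.365, permutation p = 0.0114, adjusted 0.0114), which became 0.429 without LP-STD20 replicate 9 and LP-STD10 replicate 1. MMP2 with TIMP1, at 0.394, became 0.277 without LP-STD10 replicate 2 and STD-STD replicate 10.

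**Figure D5:**
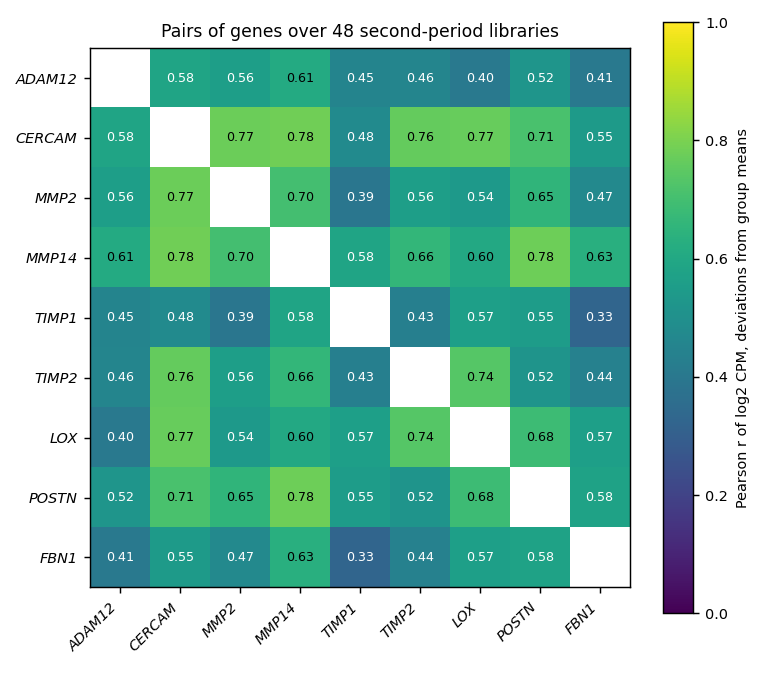
Pearson r of log2 CPM for each pair of the 9 genes over 48 second-period libraries, as deviations from group means (colour scale from 0 to 1). All 36 pairs are positive, from 0.326 for TIMP1 with FBN1 to 0.781 for CERCAM with MMP14, and the ADAM12 row is darker (lower r) than the CERCAM row, with medians of 0.488 and 0.739.

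The genes most like ADAM12 in the same 48 libraries were sought among 10152 genes, as a description. They were SIGLEC1, a macrophage sialic acid receptor (r = 0.816), DCLK1, a microtubule-associated kinase (0.769), TRANK1 (0.767), CHRNA1, the muscle acetylcholine receptor alpha subunit (0.763), and APMAP (0.754). Of the other 8 genes MMP14 ranked highest for ADAM12, at 190, and CERCAM ranked 257. For CERCAM the most similar genes were COL3A1 (0.839), CD99 (0.828), SPARC (0.826), COL6A3 (0.800) and COL5A1 (0.799), 3 of them collagen genes. MMP14, MMP2, LOX and TIMP2 ranked 10, 11, 14 and 16 for CERCAM. Over all genes the median r was -0.04 with ADAM12 and -0.05 with CERCAM, and 5.57% and 6.26% of genes exceeded 0.5.

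The runs of 4 consecutive library numbers within a second-period group were compared as well, since 740 of 13032 genes (5.68%) differed between runs of the same group. None of the 9 passed (edgeR), with the lowest adjusted p for TIMP1 (0.116) and MMP14 (0.183). TIMP1 passed in DESeq2 (adjusted p = 0.0260). Its run means in LP-STD20 were 14.2, 11.09 and 33.0 CPM, the last with the library at 84.5. The ADAM12 run means lay between 7.14 and 9.91 CPM over the 12 runs (adjusted p = 0.87).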

How the data were processed

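The authors deposited whole-number read counts per gene for 67 libraries (per the file headers, gene symbols by library numbers). Genome build Sscrofa11.1 and DESeq2 are named per the submitters' processing notes, without versions. The aligner, counter and strand setting were not given in the sources used here, so reads of overlapping or antisense genes cannot be assigned with certainty. RNA was extracted with an RNeasy Plus Universal kit, per the labels' protocols. By the RefSeq table for Sscrofa11.1, ADAM12 lies on chromosome 14 (135302188 to 135682144), CERCAM on 1 (268834967 to 268847236), FBN1 on 1 (123102011 to 123359649), LOX on 2 (125595115 to 125607026), MMP2 on 6 (30059247 to 30087031), MMP14 on 7 (76174502 to 76185931), POSTN on 11 (13225183 to 13258973), TIMP2 on 12 (3254794 to 3300835) and TIMP1 on X (42103251 to 42106289), all protein coding.

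The quasi-likelihood F test of edgeR 4.0.16 (R 4.3.3) was run with robust dispersions on counts kept by filterByExpr and scaled with TMM factors (Benjamini-Hochberg over all genes tested, threshold 0.05). All 9 genes passed the filter. LP against STD used 12 libraries, second-period comparisons 48, and those across periods all 67. The lists of pathway genes and cell type markers, and the genes themselves, were chosen with earlier results of these data known. Up to 4 genes per list past the threshold with the lowest p could be named, with the 5 genes most correlated with ADAM12 and with CERCAM. Log2 CPM used a prior count of 2.

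Alternatives were RLE factors, DESeq2 1.42.0, limma 3.58.1 voom with quality weights, 2 other count filters, the replicate number as a block, sets of 16 library numbers, sums over runs of 4, only the compared groups and a threshold of 0.10. Each library was also left out in turn, in limma voom without weights. Voom without weights on all libraries was chosen after seeing the data. Tests were checked on simulated counts. Correlations used Python 3.11.15, numpy 2.4.6 and scipy 1.17.1, with pandas 2.3.3 and matplotlib 3.10.9 for tables and figures.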

Additional observations from a re-analysis of the deposited data

Results flagged for a closer look

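In LP, replicate 1 had 13.4 CPM of ADAM12, set apart from the other 5 libraries, of which the highest had 10.3. Its gap to the next library was 0.648 of the group's range, above the critical value of 0.625 for 6 libraries (Dixon's test). Of 27 groups tested over the 9 genes 1 was marked, and chance marks about 1 in 20. Without that library the first-period difference of ADAM12 was 0.61 instead of 0.69 (difference of mean log2 CPM). This is a description, since that contrast chose the gene.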

How the results depend on the processing

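Over single genes and settings 773 values were unchanged, 8 reversed, 4 passed the threshold only under the alternative and 7 no longer did. Unchanged values kept their direction and side of the threshold. For LP against STD, where the 9 genes were not tested, unchanged means a shift below the SE. The reversed values were all uncalled: ADAM12 in LP-STD10 against STD-STD (0.000475 with the replicate block, 0.0058 in voom), MMP14 there (0.00967 with sums over runs), TIMP1 there (-0.041 in voom with quality weights), ADAM12 in LP-STD20 against STD-STD (-0.00151 with sums over runs), POSTN in LP-STD20 against LP-STD10 (0.113 in voom with quality weights, 0.019 without) and CERCAM in the first period against BL (-0.050 in voom with quality weights). In LP-STD20 against LP-STD the number of the 9 genes called was 1 in DESeq2 (TIMP2) and 2 in voom with quality weights (TIMP2, LOX) in place of 0. In the second period against the first it was 1 with sums over runs in place of 4, in the first period against BL 1 with only the compared groups in place of 0, and between runs 1 in DESeq2 in place of 0. The cause of these changes was not tested. Sums over runs also leave fewer units per group. In the tested comparisons single libraries were left out in limma voom without weights only (91 fits), so the edgeR calls were not examined in this way. The number of the 9 genes called in these fits was 0 to 1 in LP-STD20 against LP-STD (TIMP2 without LP-STD20 replicate 5, adjusted p = 0.0375). It ranged from 3 to 4 between periods and from 0 to 1 against BL. MMP14 between periods had an adjusted p of 0.0275 in voom with all libraries. It lost its call there without STD replicate 5 (adjusted p = 0.0599), STD-STD replicate 2 (0.0672) or LP-STD replicate 3 (0.050005).

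Counts over all genes moved more. LP-STD10 against STD-STD had 52 calls, 136 in DESeq2, 107 in voom with quality weights, 0 with sums over runs and 130 at 0.10. LP-STD10 against LP-STD had 53, 149 in DESeq2, 1 with sums over runs and 164 at 0.10. LP-STD20 against LP-STD had 6, 109 in DESeq2, 411 in voom with quality weights, 29 with the replicate block, 10 with sets of 16, 3 with only the compared groups, 0 with sums over runs and 64 at 0.10. LP-STD20 against STD-STD had 0 and 15 in DESeq2, and LP-STD20 against LP-STD10 0, 3 in DESeq2 and 1 with the replicate block. The second period against the first had 4217 and 1889 with sums over runs. The first period against BL had 1390, 423 with only the compared groups and 2094 at 0.10. Runs had 740, 1536 in DESeq2, 1157 in voom with quality weights and 1242 at 0.10.

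Replicate numbers did not pair the samples: of 72 same-number pairs in the second period 20 correlated over 0.1 (median 0.00387), and 6 of 48 libraries correlated best with their own number. In LP and STD 0 of 6 pairs did. With the number as a block MMP14 between periods went to an adjusted p of 0.0504, and no other call among the 9 genes changed.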
